A study of Mus musculus with 384 samples.

Results

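The 9 genes described here are Gad1, Gad2 and Slc6a9, which mark amacrine cells, and Dkk3, Vim, Apoe, Glul, Rlbp1 and Slc1a3, which mark Müller glia. All 9 of 9 were among the 32813 genes of the deposited tables. They were chosen by their TPM in these wells, so their levels are a description of the wells that chose them. The wells received fluorescent cells sorted singly from 4 retinas of 2 mice at postnatal day 17 and amplified as full-length cDNA (Smart-seq2), with 96 wells per retina and no treatment. Both mice carried Kcng4tm1.1(cre)Jrs, which places Cre under control of Kcng4, together with a YFP reporter that Cre switches on (Thy1-stop-YFP Line#1), and no group lacked either allele. The reporter is therefore seen only in cells with present or past Kcng4 activity in which the Thy1 promoter also works. Retinas 1la and 1Ra came from mouse 1 and retinas 2la and 2Ra from mouse 2, and the labels do not spell out the suffixes.

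Wells with at least 3000 genes detected, at an expected count of 1 or more, were kept. This kept 321 of the 383 wells with values (384 were labelled), with 70 wells from 1la, 80 from 1Ra, then 88 from 2la and 83 from 2Ra. The wells on either side of that limit had 2834 and 3134 genes. Each kept well was then placed by 3 transcripts of bipolar types, the transcription factors Sox6 and Vsx1 and the mTOR regulator Ddit4l, each counted as present at 20 TPM or more. TPM is an abundance scaled per transcript length and to a fixed total per well, so it allows genes to be compared. Sox6 alone was present in 151 wells, Vsx1 alone in 60 and Ddit4l alone in 59, which makes 270 wells with 1 marker. None was present in 33 wells, and 2 or more in 18, of which 5 came from mouse 1 and 13 from mouse 2. The values nearest the limit were 18.7 and 20.8 TPM for Sox6, 15.8 and 31 TPM for Vsx1, and 16.9 and 29 TPM for Ddit4l. The classes share their plates and their sort, and the mouse (n = 2), not the well, is the replicate. The labels name retina as the tissue and no cell type. On a list of bipolar genes, 11 of 12 genes were at 20 TPM or more in most wells, among them Gnb3 in 95.6%, Trpm1 in 94.7%, Cabp5 in 76% and Pcp2 in 70.7%.

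Total counts of the kept wells ran from 203657 to 1945582, with a median of 1065569. The median per retina lay between 759554 in 1Ra and 1258579 in 1la. The median share of mitochondrial counts was 2.06% and 2.14% in 1la and 2la and 4.26% and 4.88% in 1Ra and 2Ra. Markers of cells outside the neural retina were scarce at 20 TPM. Csf1r of microglia reached it in 4 wells (1.25%) and C1qb in 2, and Pecam1 and Flt1 of endothelium in 2 each. At 1 TPM or more, Cx3cr1 of microglia was found in 28.3% of wells and Pecam1 in 24.3%. The few wells with such markers included some with several Müller genes, which are given below. No doublet caller was run, and how many cells a well held was not measured.

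Amacrine cells are the inhibitory interneurons of the inner retina, and they use GABA or glycine. Gad1 and Gad2 encode the enzymes that make GABA from glutamate, and Slc6a9 encodes GLYT1, the plasma membrane transporter that takes up glycine. Müller glia span the retina and recycle the transmitter of its neurons: Slc1a3 encodes GLAST, which takes up glutamate, and Glul encodes glutamine synthetase, which turns it into glutamine for return to neurons. Rlbp1 encodes CRALBP, a retinoid carrier of the visual cycle, Apoe a secreted lipid carrier, Vim the intermediate filament vimentin and Dkk3 a secreted protein of the Dickkopf family. Bipolar cells are glutamatergic and are the partners of both cell types in the inner retina.

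The genes lie on chromosomes 1, 2, 4, 7 and 15 of the mouse assembly mm10 (positions from GENCODE M21). Glul lies at chr1:153899944-153909723 on the plus strand, and Gad1 at chr2:70553072-70602014, Gad2 at chr2:22622205-22693874 and Vim at chr2:13573927-13582826, all on the plus strand. Slc6a9 lies at chr4:117834506-117875198 on the plus strand. Apoe lies at chr7:19696109-19699188, Rlbp1 at chr7:79374870-79387048 and Dkk3 at chr7:112116017-112159057, all on the minus strand, and Slc1a3 at chr15:8634124-8710764 on the minus strand. Rlbp1 and Apoe were the pair of Müller genes found together in the most wells when Glul is set aside, and 200 bases upstream of their start sites are shown for that reason, from 250 to 51 bases before the start, 5′ to 3′ on the gene's strand (RefSeq, GRCm38.p6; chr7:19699239-19699438 and chr7:79387078-79387277, both on the minus strand). Neither stretch overlaps an annotated exon.
Apoe: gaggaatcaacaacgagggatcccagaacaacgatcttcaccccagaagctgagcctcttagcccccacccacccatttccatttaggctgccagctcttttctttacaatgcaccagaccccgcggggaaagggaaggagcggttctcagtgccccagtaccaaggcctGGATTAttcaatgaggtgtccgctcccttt
Rlbp1: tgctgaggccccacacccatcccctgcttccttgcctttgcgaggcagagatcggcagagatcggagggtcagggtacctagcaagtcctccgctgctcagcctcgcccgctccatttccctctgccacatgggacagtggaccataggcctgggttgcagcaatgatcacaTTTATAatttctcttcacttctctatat
Capitals mark the single match in each stretch to any of 3 motifs searched on both strands, which do not overlap one another: TAATCC, the core bound by the OTX and CRX factors of photoreceptors and bipolar cells, which reads GGATTA on the other strand; TATAAA, the TATA box, which reads TTTATA on the other strand; and TTCCCA, part of the site bound by RBPJ of the Notch pathway, which reads TGGGAA on the other strand. This Apoe stretch holds the letters of TAATCC and the Rlbp1 stretch those of TATAAA, both on the other strand. The Rlbp1 match starts at base 173 of the 200 shown, and whether it serves as a TATA box was not tested. Apoe has 3 start sites in RefSeq, and of the other 2 stretches, which are not shown, 1 holds 2 TATAAA matches and no TAATCC and 1 holds none of the motifs. Over all 32851 promoters of the same length, 5.22% held TAATCC, 9.14% TATAAA and 17.9% TTCCCA. RefSeq entries matched 8 of the 9 genes with 12 start sites, of which 2 genes held TAATCC, 4 TATAAA and none TTCCCA. These counts are per gene, over any of its start sites. The shares over all promoters are per promoter, so they are not a like measure. These matches describe letters only.

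Glul stood apart from the other 8 genes in being at 20 TPM or more in most wells. It was at 20 TPM or more in 179 of 321 wells, 55.8% (95% Clopper-Pearson interval 50.1% to 61.3%), at 1 to under 20 TPM in 65, and above 0 in 77.3%. Its level ran from 0 to 4842 TPM with a median of 34.8 TPM. The 4 retinas were close to each other, with 60% of the 1la wells, 57.5% of the 1Ra wells, 51.1% of the 2la wells and 55.4% of the 2Ra wells at 20 TPM or more and medians of 57.5, 31.2, 36.8 and 32.7 TPM. Their counting intervals overlapped. All intervals here cover error in counting wells only, and not the spread between mice or retinas, since wells are not replicates. Smart-seq2 reads carry no molecular identifiers.

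**Figure D1:**
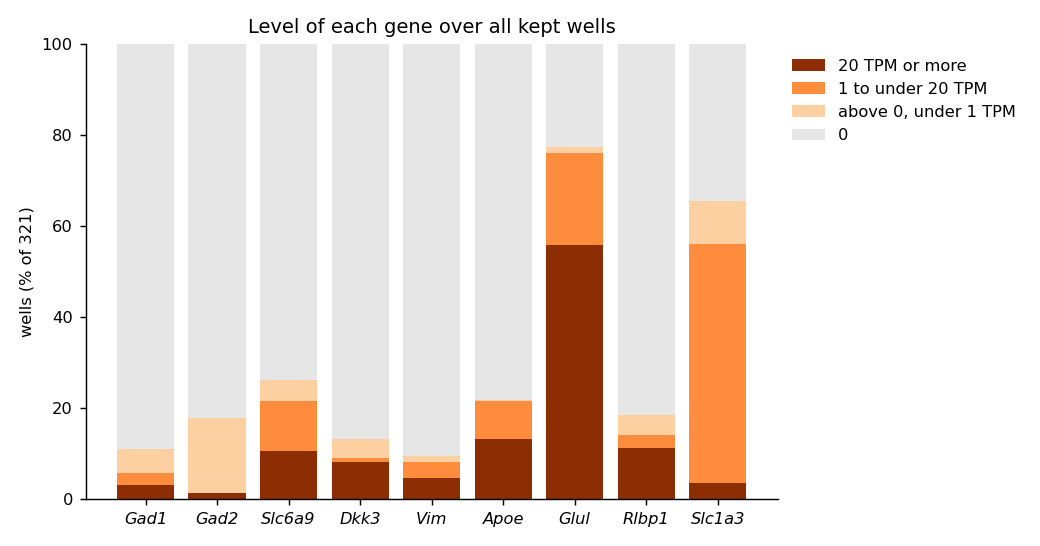
Percent of the 321 kept wells in which each gene was at 0, above 0 but under 1 TPM, at 1 to under 20 TPM, or at 20 TPM or more. Glul was at 20 TPM or more in 55.8% of wells, Slc1a3 was mostly at 1 to under 20 TPM, and the other 7 genes were at 0 in most wells.

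Slc1a3 was also widespread but at a far lower level. It was above 0 in 65.4% of wells, yet 169 wells were at 1 to under 20 TPM and only 11 (3.43%, 1.72% to 6.05%) at 20 TPM or more. The median was 1.21 TPM, and the wells at 1 to under 20 TPM held a median expected count of 2.05 for this gene. The wide spread of Slc1a3 therefore rests on a few reads per well. With every well thinned to 200000 counts, 24% had a count of Slc1a3, against 61.7% before thinning, while Glul kept a count in 65.1% against 77.3%. The median was between 1.12 and 1.36 TPM in each of the 4 retinas and between 1.05 and 2.13 TPM in each of the 5 marker classes.

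The other 4 Müller genes were absent from most wells and high in a few. Apoe was at 20 TPM or more in 42 wells (13.1%, 9.60% to 17.3%), with a median of 250.6 TPM among those wells and a highest value of 12663 TPM. Retina 2la had the highest share, 19.3%, against 11.4% in 1la, 11.3% in 1Ra and 9.64% in 2Ra. Rlbp1 was at 20 TPM or more in 36 wells (11.2%, 7.98% to 15.2%), with a median of 187 TPM among them and a highest value of 1925 TPM. Its share was even over the retinas, at 11.4%, 10%, 11.4% and 12% in 1la, 1Ra, 2la and 2Ra. Dkk3 was at 20 TPM or more in 26 wells (8.10%, 5.36% to 11.6%), reaching 1811 TPM, with 8.57%, 5%, 5.68% and 13.3% in the same order. Vim was at 20 TPM or more in 15 wells (4.67%, 2.64% to 7.59%), or 3, 4, 4 and 4 wells per retina. Values between 1 and 20 TPM were few beside those at 20 TPM or more for Dkk3 (3 wells against 26) and Rlbp1 (9 against 36). They were a larger part for Vim (11 against 15) and Apoe (27 against 42). Where they were found, Dkk3 and Rlbp1 were thus mostly above the limit, while Vim and Apoe also had many wells below it.

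Means of some of these genes lean on single wells. For Vim, the well at H1 of 2la, in the class with no marker, had 7109 TPM and held 67.8% of the summed TPM of all wells, and the mean over wells was 32.7 TPM with it and 11 TPM without it. For Apoe, the well at F8 of 2Ra held 37.9% of the sum, and the mean went from 104 to 64.9 TPM without it. Shares of wells are used below for that reason.

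The amacrine genes split into a pair and a loner. Gad1 was at 20 TPM or more in 10 wells (3.12%, 1.5% to 5.65%), reaching 1073 TPM, and Gad2 in 4 wells (1.25%, 0.341% to 3.16%), reaching 291 TPM. All 4 Gad2 wells were Gad1 wells. Of the 10 wells, 7 were in retina 2Ra (8.43% of its wells, 3.46% to 16.6%), 2 in 1la and 1 in 2la. In 1Ra there were 0 of 80, which allows a share of up to 3.75%. Without retina 2Ra the share fell from 3.12% to 1.26%. Slc6a9 was at 20 TPM or more in 34 wells (10.6%, 7.45% to 14%) and at 1 to under 20 TPM in 35 more, with a highest value of 661 TPM. Mouse 1 had it in 14.3% (1la) and 13.8% (1Ra) of wells and mouse 2 in 10.2% (2la) and 4.82% (2Ra), so retina 2Ra had the most Gad1 wells and, at this limit, the fewest Slc6a9 wells. That order depends on the limit: with any count of Slc6a9, 2Ra had the most wells, 37.3% against 20% in 1la, 26.3% in 1Ra and 19.3% in 2la. After thinning to 200000 counts it was 20.5% against 15.7%, 17.5% and 14.8%. The intervals of the 4 shares at 20 TPM overlapped.

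**Figure D2:**
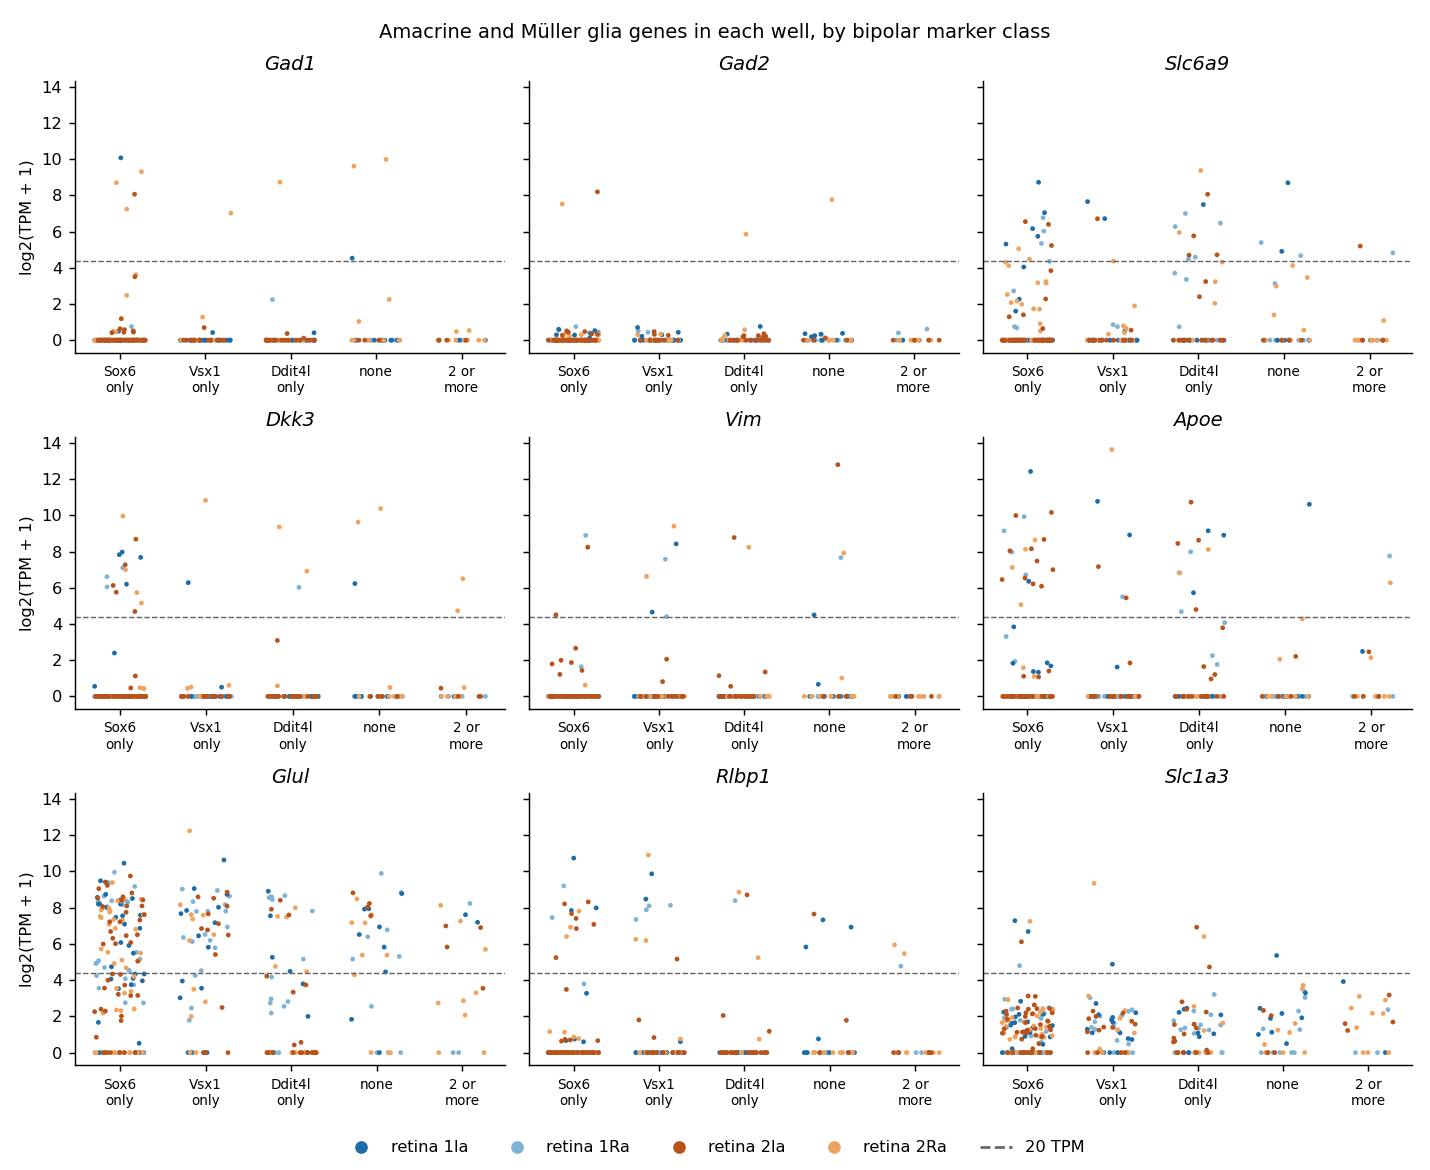
Level of each of the 9 genes (log2 of TPM plus 1) in every kept well, 1 point per well, by marker class on the horizontal axis and coloured by retina, with the limit of 20 TPM dashed. Glul points fill the range above the limit in all 5 classes, Slc1a3 points lie just above 0, and the other genes show scattered high wells in the classes with 1 marker as well as in those with none.

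The marker classes were then compared to see whether the 9 genes were found more often in wells with 2 or more bipolar markers, or with none, than in wells with 1. At least 1 of the 5 Müller genes other than Glul was at 20 TPM or more in 91 wells (28.3%). This was so in 29.3% (23.9% to 35.1%) of the wells with 1 marker, 27.3% (13.3% to 45.5%) of those with none and 16.7% (3.58% to 41.4%) of those with 2 or more. Within the 1-marker classes the shares were 29.8% for Sox6, 28.3% for Vsx1 and 28.8% for Ddit4l. At least 2 of the 5 were present in 21 wells, 6.30% of wells with 1 marker, 1 of 33 (3.03%) with none and 3 of 18 (16.7%) with 2 or more, and the intervals overlapped. At least 3 were present in 10 wells, 2.96% of wells with 1 marker, 3.03% with none and 5.56% with 2 or more. Most wells with several Müller genes therefore carried a single bipolar marker (17 of the 21 wells with at least 2, and 8 of the 10 with at least 3), as did 270 of all 321 wells. With 18 wells in the class with 2 or more markers, differences of the size of these intervals were not detectable.

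For Vim, all 18 wells with 2 or more markers were listed at 0, which allows a share at 20 TPM of up to 16.7%. It was at 20 TPM or more in 12.1% of wells with no marker, 10% with Vsx1, 3.39% with Ddit4l and 1.99% with Sox6. Apoe was at 20 TPM or more in 20.3% of wells with Ddit4l, 13.9% with Sox6, 11.1% with 2 or more markers, 10% with Vsx1 and 3.03% (1 of 33) with none. Rlbp1 ran from 6.78% with Ddit4l and 9.93% with Sox6 to 12.1% with none and 16.7% with Vsx1 and with 2 or more. Dkk3 ran from 3.33% with Vsx1 and 5.08% with Ddit4l to 9.09% with none, 10.6% with Sox6 and 11.1% with 2 or more. No neighbours in these orders had separate intervals.

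Gad1 was at 20 TPM or more in 5 wells with Sox6, 1 with Vsx1, 1 with Ddit4l and 3 with no marker. In the class with 2 or more it was at 0 of 18, which allows up to 16.7%. The share was 9.09% (1.92% to 24.3%) with no marker and 2.59% (1.05% to 5.27%) with 1. Slc6a9 was at 20 TPM or more in 20.3% (11% to 32.8%) of wells with Ddit4l, 12.1% with none, 11.1% with 2 or more, 8.61% (4.66% to 14.3%) with Sox6 and 5% (1.04% to 13.9%) with Vsx1. The glycine transporter was thus seen most often in the class with Ddit4l, with intervals that overlap those of the other classes.

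Glul differed most between the classes. It was at 20 TPM or more in 69.7% (51.3% to 84.4%) of wells with no marker, 68.3% (55% to 79.7%) with Vsx1, 58.3% (50% to 66.2%) with Sox6, 50% (26% to 74%) with 2 or more and 30.5% (19.2% to 43.9%) with Ddit4l. The Ddit4l interval lay below those of the Sox6, Vsx1 and no-marker classes. Shares were lower with Ddit4l than with Vsx1 in every retina, with 40% against 56.3% for 1la, 31.6% against 83.3% for 1Ra, 15% against 71.4% for 2la and 50% against 58.3% for 2Ra. They were lower than with Sox6 in every retina as well, where Sox6 wells were at 60.6%, 60%, 54.3% and 59.5%. The median level was 90.6 TPM with Vsx1, 83.1 TPM with no marker, 35 TPM with Sox6, 30.9 TPM with 2 or more and 0.480 TPM with Ddit4l. Apoe had another order, with its highest share in the Ddit4l class.

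**Figure D3:**
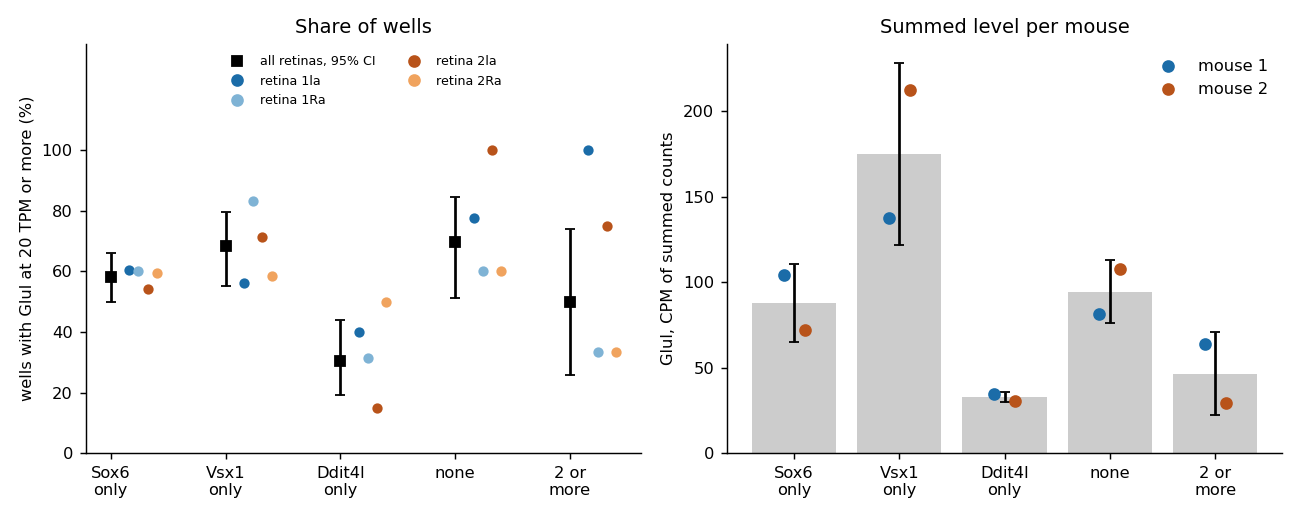
Glul by marker class. The left panel gives the percent of wells at 20 TPM or more, with squares for all retinas with 95% Clopper-Pearson intervals and a circle for each retina, and the right panel gives CPM of counts summed per mouse, with bars and error bars for the mean and SD of 2 mice. The Ddit4l class had the lowest share, 30.5% of wells, and the lowest mean, 32.9 CPM, and the Vsx1 class was highest in CPM, at 175 CPM.

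The same question was put to counts summed per mouse and class, tested on the whole table with edgeR's quasi-likelihood test with the mouse as a block. Nothing in the labels says how the 2 mice were raised or processed, and p-values measure the spread between these sums. Genes were called at a Benjamini-Hochberg adjusted p under 0.05 and a log2 fold change of 1 or more in size. None of the 9 genes was called in any of the 5 class comparisons or between Ra and la retinas. The background was as low. Among 17376 genes tested, 0.00576% were called higher and 0% lower in wells with 2 or more markers against those with 1, and the same shares held for wells with none. They were 0.0230% higher and 0.0115% lower for Sox6, 0.0173% and 0.0518% for Vsx1 and 0.0460% and 0.0115% for Ddit4l, each against the mean of the other 1-marker classes. Between Ra and la retinas 0% of 18032 genes were called in either direction, with 1823 at an unadjusted p under 0.05. A count of 0 of 9 is therefore near the background. DESeq2, run as an alternative, called far more of the table: 1.77% higher and 4.25% lower with 2 or more markers, 2.75% and 2.33% with none, 1.06% and 0.426% with Sox6, 2.16% and 2.55% with Vsx1, 1.66% and 2.4% with Ddit4l and 2.54% and 1.32% between Ra and la. It called 3 of the 9 genes with 2 or more markers, 1 with Vsx1, 1 with Ddit4l and none in the other 3 comparisons.

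In CPM (summed counts scaled to a fixed library total) Glul was at 138 and 213 in the Vsx1 class of mouse 1 and mouse 2, at 104 and 72 in the Sox6 class and at 34.9 and 30.9 in the Ddit4l class. The ranges of the 3 classes over the 2 mice did not overlap. Fitted on the log2 scale, the difference was 1.73 ± 0.42 (SE) for Vsx1 against the other 1-marker classes (edgeR, Benjamini-Hochberg adjusted p = 0.334) and -1.92 ± 0.47 for Ddit4l (edgeR, adjusted p = 0.394). These comparisons share their samples, so they are not independent. DESeq2 called both, with adjusted p-values of 0.0254 and 0.0117. Without the well at F8 of 2Ra, which had the highest Glul of all, the Vsx1 value was 0.92 ± 0.41 (edgeR, adjusted p = 0.691) and the Ddit4l value -1.52.

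Wells with 2 or more markers had 8 of the 9 genes at a lower fitted level than wells with 1, with a median log2 fold change of -2.41 against -0.23 over all genes tested. Adjusted p-values of the 9 genes from edgeR ran from 0.611 to 1. Other lists moved as well, with medians of -2.82 for microglia (4 genes tested), -0.43 for rods and 0.88 for bipolar genes. Whether the lower values are particular to these 9 genes was not tested. The class holds only 18 wells, and over all kept wells Gad1 was at 20 TPM or more in 10 and Vim in 15. Rlbp1 was at 6.06 and 14.6 CPM in this class in the 2 mice, and at 67.4 and 29.7 CPM in the Sox6 class, 89.6 and 154 CPM in the Vsx1 class and 12.8 and 37.8 CPM in the Ddit4l class. Its log2 fold change was -2.41 ± 0.74 (edgeR, adjusted p = 0.611). The 3 genes that DESeq2 called lower there were Rlbp1 (adjusted p = 0.0160), Vim (0.0120) and Gad1 (0.00834). No fold is given for Vim and Gad1, since Vim was at 0 in both mice and Gad1 at 0 and 0.126 CPM in that class. The 3 wells of this class with Rlbp1 at 20 TPM or more reached at most 60.8 TPM, while such wells had medians of 203 TPM with Sox6, 255 TPM with Vsx1 and 376 TPM with Ddit4l.

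In the other comparisons the 9 genes went both ways. In wells with no marker 6 were at a higher and 3 at a lower fitted level (median log2 fold change 0.45 against -0.01 over all genes; edgeR, adjusted p from 0.601 to 0.993). With Sox6 it was 5 and 4 (0.20 against 0.08), with Vsx1 5 and 4 (1.73 against -0.01) and with Ddit4l 1 and 8 (-1.33 against -0.02), and between Ra and la 6 and 3 (0.54 against -0.01). The 1 higher gene with Ddit4l was Slc6a9, at 18.8 and 57.5 CPM in the 2 mice against 16.5 and 5.02 CPM with Sox6 (log2 fold change 2.47 ± 1.05; edgeR, adjusted p = 0.724). Its mean with Ddit4l was 75.2 TPM in 2Ra and 17.9, 18.8 and 19.1 TPM in 1la, 1Ra and 2la. With Sox6 the mean was 3.17 TPM in 2Ra and 22.2, 7.91 and 5.06 TPM in 1la, 1Ra and 2la. Values for Vsx1 leaned on the well at F8 of 2Ra: Apoe went from 2.69 to -1.98, and Rlbp1 from 1.75 to 0.33, when it was left out, a setting chosen after seeing the data. Between Ra and la retinas Glul differed by -0.08 ± 0.30 and Dkk3 by 2.39 ± 1.32 (edgeR, adjusted p = 0.953 and 0.630). Each retina is its own set of wells, so the retina and its set of wells cannot be told apart.

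Co-detection of the genes in single wells was examined next. Of 321 wells, 230 had none of the 5 Müller genes other than Glul at 20 TPM or more, 70 had 1, 11 had 2, 5 had 3, 2 had 4 and 3 had all 5. A single gene was the usual finding. Apoe was the only 1 of the 5 in 25 of its 42 wells (59.5%), Rlbp1 in 20 of 36 (55.6%), Dkk3 in 13 of 26 (50%), Vim in 7 of 15 (46.7%) and Slc1a3 in 5 of 11 (45.5%). Each gene named next was still more frequent in wells that held its partner than in the others. Rlbp1 was present in 31% (17.6% to 47.1%) of Apoe wells and 8.24% (5.30% to 12.1%) of the others, which is 13 wells with both. Apoe was present in 46.7% of Vim wells against 11.4% of the others and in 38.5% of Dkk3 wells against 10.8%. Dkk3 was present in 45.5% of the 11 Slc1a3 wells and 6.77% of the others. Across all wells the correlation of log2(TPM + 1) was 0.32 for Apoe and Rlbp1 and 0.28 for Dkk3 and Rlbp1. Wells share plates, depth and sort, so these values are descriptions.

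**Figure D4:**
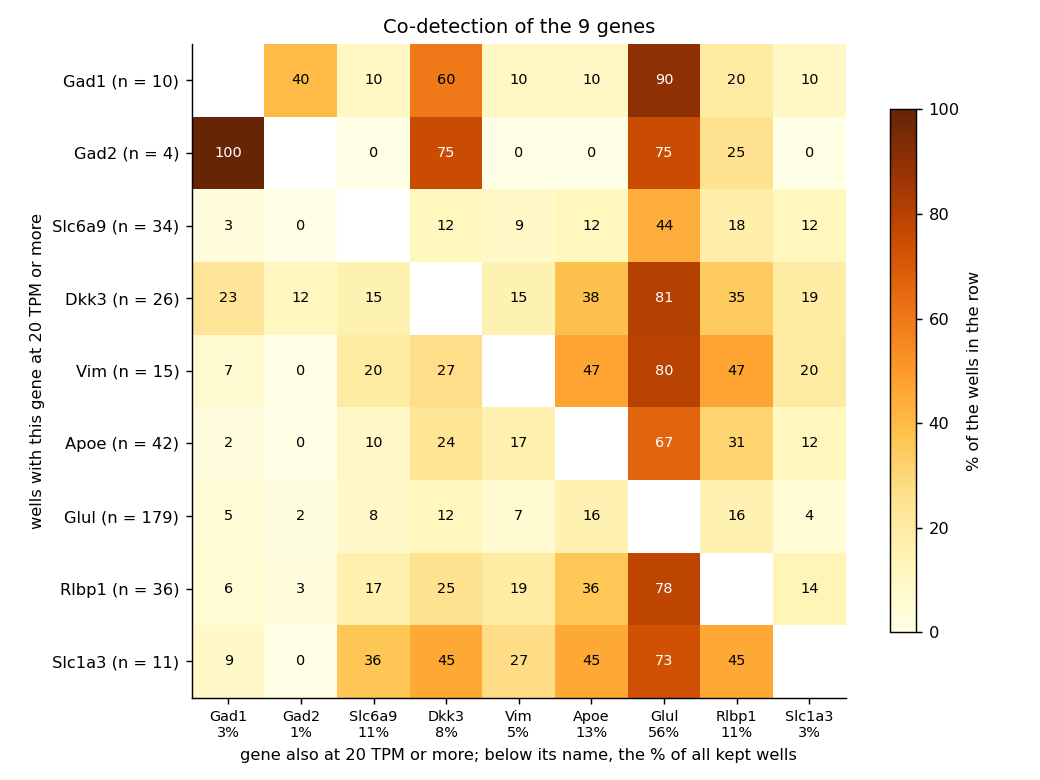
For the wells in which the gene of a row was at 20 TPM or more, the percent that also had the gene of the column at 20 TPM or more, with the share over all 321 wells under each column name. All 4 Gad2 wells had Gad1, 60% of Gad1 wells had Dkk3, and 3% of Slc6a9 wells had Gad1.

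Dkk3 was shared between the 2 sets. It was present in 6 of the 10 Gad1 wells (60%) and 6.43% of the others, while Apoe was in 1 of the 10 and Vim in 1. Of these 6 wells 5 were in retina 2Ra (5 of its 7 Gad1 wells, against 7.89% of its others), and the other was the well at E3 of 1la, with 8 of the 9 genes. Outside 2Ra it was 1 of 3 Gad1 wells, so the pairing of Dkk3 and Gad1 rests on 1 retina. The wells at B7, C9, H6 and H12 of 2Ra entered the counts of the 5 Müller genes above through Dkk3 alone, and E6 through Dkk3 and Rlbp1. The correlation of Dkk3 was 0.43 with Gad1 and 0.35 with Gad2, above its values with the Müller genes. Gad1 and Gad2 had the highest correlation of all pairs, 0.65. Glul was in 9 of the 10 Gad1 wells against 54.7% of the others.

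Slc6a9 did not share wells with the other amacrine genes beyond 1 Gad1 well. Gad1 was in 2.94% of its wells and 3.14% of the others, Apoe in 11.8% against 13.2%, Dkk3 in 11.8% against 7.67% and Glul in 44.1% against 57.1%. Slc1a3 was in 4 of its 34 wells (11.8%, 3.30% to 27.5%) against 2.44% (0.986% to 4.96%) of the others, and Rlbp1 in 17.6% against 10.5%, with overlapping intervals. Its correlations with the other 8 genes lay between -0.12 and 0.06. Slc6a9 shares 1429 exonic bases on the opposite strand with Ccdc24, and without strand information their reads cannot be told apart by strand. Ccdc24 was at 20 TPM or more in 17.6% of Slc6a9 wells and 14.6% of the others, with a correlation of 0.13.

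The 10 wells with at least 3 of the 5 Müller genes were looked at 1 by 1. They had a median of 10 of the 12 bipolar list genes at 20 TPM or more (from 1 to 12), and so had the 230 wells with none of the 5. Their median number of genes was 6744 against 6283, and their median total count 1088101 against 1063242. Rod genes summed to 1000 TPM or more in 5 of the 10 and in 29.1% of the 230. The well at F8 of 2Ra, named like the others after its values were seen, was the fullest: it had Apoe at 12663, Glul at 4842, Rlbp1 at 1925, Dkk3 at 1811, Vim at 674 and Slc1a3 at 650 TPM. It also had 17 of the 20 genes of the Müller list, among them the chaperone Clu at 2077, carbonic anhydrase 14 (Car14) at 700, the transcription factor Sox9 at 70.5 and the water channel Aqp4 at 20.2 TPM. The same well had 10 of the 12 bipolar genes, Vsx1 at 56.7 TPM and 9150 genes detected, and Kcng4, which drives the Cre, was listed at 0. Both sets of transcripts were thus present in this well.

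The other 9 of these wells had between 1 and 10 of the 20 Müller list genes. The wells at F1 and E2 of 1la had Apoe at 5477 and 1744, Rlbp1 at 1709 and 935 and Glul at 136 and 1593 TPM, each with 6 Müller list genes and with 9 and 10 bipolar genes. The wells at A7 of 1Ra and B8 of 2la had 11 and 8 bipolar genes and Apoe at 970 and 1691 TPM. The well at E3 of 1la had 13002 genes, the most of any, from 551573 counts. It had 8 of the 9 genes at 20 TPM or more, none of the 3 class markers, and 11 bipolar, 10 Müller and 4 amacrine list genes, most of them at modest levels. The well at H5 of 2la had Apoe at 1015 and Rlbp1 at 134 TPM with Sox6 at 38.3 TPM but 1 of 12 bipolar genes and 1 of 20 Müller list genes.

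Markers of other cell types moved with some of these 10 wells. The well at H5 of 2la had 6 of the 7 microglia list genes at 20 TPM or more, with C1qb at 293, P2ry12 at 208, Csf1r at 208, C1qa at 161, Tmem119 at 73 and Cx3cr1 at 33.2 TPM. The seventh, C1qc, was at 12.7 TPM there and under 20 TPM in every well. Its microglia list summed to 988 TPM, against 0 to 51.5 TPM (median 0.490) in the 302 wells outside both sets of named wells. The median over the 10 wells was 0.520 TPM, and the well at E3 of 1la was next with 71.2 TPM. Flt1 of endothelium reached 20 TPM in 2 wells of all, F8 and D12 of 2Ra (74.9 and 32 TPM), and the glial gene Aldh1l1 in 2, F8 of 2Ra and E2 of 1la (85.3 and 27.5 TPM). Pdgfrb of pericytes was at 24.1 TPM in F8 of 2Ra alone. The astrocyte marker Gfap was below 20 TPM in every well. Microglia also express Apoe. Without the well at H5 of 2la, left out after seeing the data, 9 of 320 wells (2.81%, 1.29% to 5.27%) had at least 3 of the 5 Müller genes, and none of the 9 genes was called in any class comparison by edgeR. The part of other cell types in these results was not tested further.

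**Figure D5:**
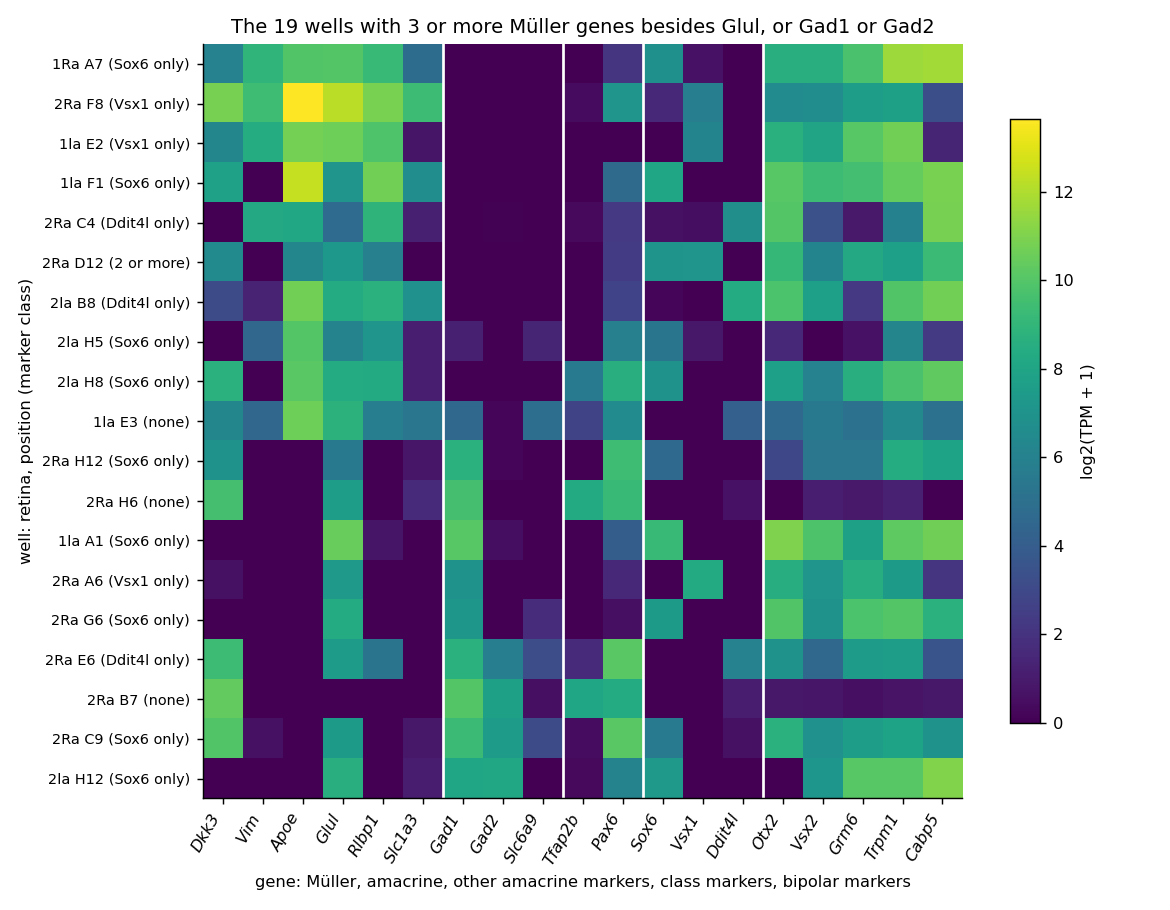
Levels (colour, log2 of TPM plus 1) of the 9 genes, 2 further amacrine markers, the 3 class markers and 5 bipolar markers in the 19 wells that had at least 3 Müller genes besides Glul, or Gad1 or Gad2. Bipolar markers are high in most of these wells, and the wells at H6 and B7 of 2Ra have amacrine markers with bipolar markers near 0.

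Class markers had lower medians in wells with several Müller genes. In wells with at least 2 of the 5 the median Sox6 level in the Sox6 class was 161 TPM, against 196 TPM in wells with none. It was 205 against 271 TPM for Vsx1, over 4 and 43 wells, and 104 against 342 TPM for Ddit4l, over 5 and 42 wells. The ranges overlapped in all 3 classes. Whether these wells held more than 1 cell was not tested.

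The 10 Gad1 wells differed in the company Gad1 kept. The wells at B7 and H6 of 2Ra had no class marker and 1 of 12 bipolar genes. They had Gad1 at 1007 and 780, the transcription factors Tfap2b at 271 and 316 and Pax6 at 332 and 603, and Dkk3 at 1325 and 786 TPM. The wells at C9, E6 and H12 of 2Ra had Gad1 at 632, 422 and 413, Pax6 at 1145, 1117 and 679 and Dkk3 at 990, 653 and 127 TPM, together with 10, 10 and 9 bipolar genes and a class marker. Tfap2b was at 0.39, 2.19 and 0 TPM in these 3 wells, and 5, 4 and 3 amacrine list genes were at 20 TPM or more. Gad1 and Pax6 were thus present together with bipolar transcripts in each of them, without Tfap2b at the levels of B7 and H6. The wells at A1 of 1la, A6 and G6 of 2Ra and H12 of 2la had Gad1 at 1073, 129, 150 and 266 TPM with 9 to 11 bipolar genes and Tfap2b under 1 TPM. The last of the 10 was the well at E3 of 1la, with Gad1 at 22.1 TPM.

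The wider pathways of these genes showed which parts were common in the wells. Of the 13 genes listed for glutamate and retinoid recycling, 4 were at 20 TPM or more in most wells, namely the glutamate transporter Slc1a2 (94.4%), the glutamine transporters Slc38a3 (78.2%) and Slc38a1 (66%), and Glul (55.8%). Rpe65 and Lrat, enzymes of the pigment epithelium named here after their values were seen, reached 20 TPM in no well. Among the 11 genes of GABA and glycine synthesis and uptake, the GABA-degrading enzyme Abat was at 20 TPM or more in 9.03% of wells. The vesicular transporter Slc32a1, which loads both inhibitory transmitters, reached it in 4 wells, 2 of them Gad1 wells.

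Of the 20 genes of the Müller list, 3 were at 20 TPM or more in most wells, Ttyh1 (96.6%), the metallothionein Mt1 (58.3%) and Clu (54.8%), and Sparc was so in 29.9%. By contrast 12 were so in under 5%. Among these, named after their values were seen, Aqp4 was at 20 TPM in 1 well, Rgr in 1 and the progenitor factor Sox2 in none. The summed level of the list had a median of 1548 TPM (lowest 86.9, highest 9487) in the 10 wells with at least 3 Müller genes and 909 TPM (4.73 to 4096) in the 302 wells outside both sets of named wells. This sum leans on Ttyh1, Mt1 and Clu, with means of 559, 181 and 170 TPM over all wells. Of the list genes at 20 TPM or more in under 10% of wells, the 10 wells had a median of 2 (0 to 11). The 230 wells with none of the 5 Müller genes other than Glul had a median of 0 (0 to 2). Of the 16 amacrine list genes in the table, Snhg11 (28%) and Pax6 (17.8%) were the most frequent, and Elavl4 was in 4 wells. The amacrine list summed to a median of 1003 TPM (43 to 4349) in the 10 Gad1 wells and 26.2 TPM (0.430 to 1739) in the 302 wells. Genes in most wells were thus found in the Müller list and not in the amacrine list, of which 13 were at 20 TPM or more in under 5% of wells.

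In the test across classes, 0 genes of these 4 lists were called in any of the 6 comparisons by edgeR, with 11 of 17 amacrine, 18 of 20 Müller, 9 of 11 GABA and glycine and 10 of 13 recycling genes tested between classes. In wells with no marker the median log2 fold change was 1.77 over the amacrine genes and 0.03 over the Müller genes, against -0.01 over all genes. In wells with 2 or more markers it was -1.80 and -0.83, against -0.23. With Vsx1 it was -0.90 and 3, against -0.01, in the class that holds the well at F8 of 2Ra. With Ddit4l it was 0.60 and -1.70, against -0.02, and with Sox6 0.29 and 0.53, against 0.08. The bipolar list had medians of -1.61 with Ddit4l, 1.02 with Sox6 and 0.16 with Vsx1.

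Genes most like each member were sought by the correlation of log2(TPM + 1), centred within retina and class, over 321 wells and the 12457 genes at 1 TPM or more in at least 10% of wells, naming up to 3 with at least 0.3. Gad1, Gad2, Dkk3 and Vim were below that share and so were not among the genes compared. Gad1 was most like Zfp385c (0.53), and the muscarinic receptor Chrm1 was also among its named genes (0.42). Gad2 was most like Fam65b (0.45), Zfp385c (0.44) and Spock3 (0.42), and the named genes of Dkk3 included Zfp385c (0.44) and Abat (0.40). Zfp385c thus recurs among the neighbours of the GABA genes and Dkk3 by this measure. Without centring, its values with Gad1, Gad2 and Dkk3 were 0.55, 0.46 and 0.45, but by rank (Spearman) 0.08, 0.16 and 0.07. For Apoe with Rlbp1 these were 0.32 and 0.11. Ranks over the wells were thus far less alike than levels. Apoe was most like Spc25 (0.38), Rlbp1 (0.34) and Cp (0.33), and Rlbp1 was most like Spc25 (0.36), Acot11 (0.35) and Apoe (0.34). Vim was most like Sept9 (0.48), Gm1840 (0.33) and the cathepsin Ctsh (0.33), and Slc1a3 was most like the tetraspanin Cd9 (0.31). No gene reached 0.3 with Slc6a9, whose highest value was 0.25.

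The gene most like Glul was a microRNA row, mmu-mir-8114, at 0.70. Its hairpin lies at the start of Glul on the same strand, from 153899926 to 153900036 on chromosome 1, and shares 93 exonic bases with it. The mature sequence (RefSeq, GRCm38.p6, chr1:153899989-153900009, plus strand) is shown because it lies within the stretch annotated to both rows, with its seed, bases 2 to 8, in capitals.
mmu-miR-8114: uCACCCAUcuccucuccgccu
All 182 wells with a value above 0 for the microRNA row also had Glul above 0, and 0 wells had the microRNA row alone. The row held 1078 counts over all wells against 30499 for Glul, 3.41% of the sum of both. A full-length cDNA library does not separate a small RNA from a long transcript that covers it, so the row is reported as uncertain. With its counts added to Glul, none of the 9 genes was called in any class comparison.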

How the data were processed

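The tools named in the submitters' processing notes are TopHat2 (2.0.10) and RSEM (1.2.28), with mm10 as the assembly; the annotation is not given in the sources used here. Expected counts, not normalised, and TPM were deposited for each gene and well. Single-end reads carried no strand information in the labels. Shares of wells use TPM, with exact Clopper-Pearson intervals (scipy 1.17.1). For tests, expected counts were rounded, summed per mouse and marker class (at least 5 wells in each mouse) or per retina, and fitted with edgeR 4.0.16 (R 4.3.3; TMM, filterByExpr, quasi-likelihood, Benjamini-Hochberg over all genes tested). The mouse was a block in the class comparisons, since all classes came from both mice. DESeq2 1.42.0, other limits and left-out retinas or wells were alternatives. The fits were tested on simulated data, and no result of that test is given here. It is therefore no measure of which changes in the genes described here could have been detected. A count of 0 allows up to 3 counts. The members and gene lists were chosen with earlier results of these data known. Named list genes were up to 4 per list with the highest mean TPM, and further ones are said to be so. In all, 62 wells under 3000 genes were left out of the comparisons. Some genes that the naming rule would give are not reported here.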

Additional observations from a re-analysis of the deposited data

Results flagged for a closer look

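Over the 4 retinas, 24 sets of means and shares were checked for 1 retina far from the others, and chance would single out about 1 set in 20. The mean Dkk3 level was 72.5 TPM in 2Ra and 13, 4.52 and 8.16 TPM in 1la, 1Ra and 2la. Without its highest well, F8, the mean of 2Ra was 51.3 TPM. Most of what remained came from Gad1 wells of that retina. Their Dkk3 levels were 1325 (B7), 990 (C9), 786 (H6), 653 (E6) and 127 TPM (H12). The high mean of 2Ra thus rests on few wells. The mean Vim level was 89.7 TPM in 2la and 5.55, 11.1 and 15.8 TPM in 1la, 1Ra and 2Ra, and it was 8.99 TPM in 2la without the well at H1.

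The 62 wells with fewer than 3000 genes entered no comparison, and some of them had these genes. At 20 TPM or more were Glul in 22.6% of them, Apoe in 12.9%, and Dkk3, Vim and Rlbp1 in 6.45% each. The highest levels there were 4074 TPM for Rlbp1 and 3773 TPM for Apoe. Whether RNA in such wells came from a cell or from the suspension was not tested.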

How the results depend on the processing

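None of the 9 genes was called in any comparison by edgeR under any of up to 17 settings (adjusted p from 0.120 to 1); DESeq2 called 3, 1 and 1 of them with 2 or more markers, Vsx1 and Ddit4l. Counts over all genes moved more, and the cause was not tested. For 2 or more markers (1 gene), none (1), Sox6 (6), Vsx1 (12) and Ddit4l (10), DESeq2 called 917, 846, 255, 785 and 656 genes, sums per retina 5, 0, 28, 107 and 82, and markers at 5 TPM 2, 0, 1, 2 and 5. Markers at 100 TPM gave 0, 1, 79 and 60 for the last 4. Without rod-rich wells the counts were 0, 1, 0, 19 and 9. With no replicate block they were 1, 4, 5, 25 and 10, and with the mouse as a replicate block between Ra and la retinas still 0, where DESeq2 called 681. Without the well at H5 of 2la (chosen after seeing the data) they were 1, 1, 6, 12 and 10. At 1500 genes per well 2 genes were called with no marker, and at 5000 genes 0 with Sox6, as without the well at E3 of 1la (chosen after seeing the data). Leaving out each retina in turn gave 0 to 3 genes with none, 0 with Sox6, 0 to 16 with Vsx1 and 0 to 12 with Ddit4l. The Vsx1 values of Apoe turned to -2.72 with markers at 100 TPM and -1.98 without the well at F8 of 2Ra, and ranged from -1.42 (without 2Ra) to 4.90 with 1 retina left out, and that of Rlbp1 from -0.16 (without 2Ra) to 2.38. At limits of 1 and 100 TPM, Glul was present in 76% and 39.3% of wells (49.8% after thinning), at least 1 other Müller gene in 72.6% and 19.9%, and at least 1 amacrine gene in 25.5% and 6.23%. Gad1 or Gad2 ranged from 1.26% to 4.15% with 1 retina left out. The class with 2 or more markers had too few wells to be fitted with markers at 100 TPM or without 1la, 1Ra or 2Ra, as had the class with none without 2Ra.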

Other observations

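The Gad1 wells were not spread evenly over the plate of 2Ra. Of its 7 Gad1 wells, 4 lay in plate column 6, out of 8 kept wells of that column, and 1 each in columns 7, 9 and 12. In the other 3 retinas column 6 held 0 Gad1 wells among 5, 6 and 8 kept wells. The 2 wells of 2Ra with amacrine genes and hardly any bipolar genes had Kcng4, the gene that drives the Cre, at 5.71 TPM (B7) and listed at 0 (H6). The pattern was noticed after the values were seen, and no test was made.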
